A study of Mus musculus with 8 samples.

Results

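Macrophages of white fat were followed through 10 marker genes, Adgre1, Cd68, Csf1r, Cd163, Mrc1, C1qa, C1qb, C1qc, Folr2 and Lyve1, in epididymal adipose tissue. They were taken as a list of general and tissue-resident macrophage markers, and each was read from its own single probe set among the 22180 genes that the platform annotation names unambiguously. Total RNA of the left epididymal fat pad of 8 male C57BL/6 mice was hybridised to 8 Mouse Gene 2.0 ST arrays of Affymetrix, so that each mouse had an array of its own. Every mouse was weaned at 3 weeks of age onto the HFn-6 diet, in which fat gave 45% of the energy and n-6 fatty acids predominated, was caged singly and was killed at 10 weeks. From 6 weeks of age, and for 4 weeks, the GC+ group of 4 mice ate the synthetic glucocorticoid prednisolone each day in sweet potato puree, at 40 mg/kg per square metre as the labels put it, and the GC- group of 4 mice ate the puree alone as vehicle. Whole tissue was used, so fewer cells of a type and less RNA per cell cannot be told apart. All values are log2 expression after robust multiarray averaging, so that a difference of 1 is a doubling, and mice are named by group and by the replicate number of their label.

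Adipose macrophages clear dying cells and lipid, and several states are recognised by their surface and secreted proteins. General markers are carried by most macrophages, whereas Cd163, Mrc1, Folr2 and Lyve1 mark resident cells that lie along vessels in many tissues. Csf1r is the receptor for the growth factors Csf1 and Il34, on which macrophages depend for survival. The C1qa, C1qb and C1qc chains assemble into C1q, the recognition molecule of the classical complement pathway, and tissue macrophages are its main source. Glucocorticoids are known to raise Cd163 and Mrc1 in cultured macrophages.

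Between the groups, the mean of each of the 10 markers was higher with prednisolone, and 0 of the 10 passed the test. Differences ran from 0.06 for Cd163 to 0.60 for Cd68, with a median of 0.25, and every 95% interval included 0. Without the 3 arrays that carried the most epididymal RNA, 1 of 10 markers, Cd68, kept a higher mean and the median was -0.13. That fit was chosen after the values were seen and left 3 prednisolone and 2 vehicle mice. The 3 arrays left out were also those with the lowest marker medians, so the fit cannot separate epididymal RNA from low marker values. For each marker the SD over the vehicle mice was larger than the difference between the groups. Adgre1 spanned 2.12, or 4.34-fold, across the 4 vehicle mice. With limma and Benjamini-Hochberg adjustment at 0.05, 0 of 14787 tested genes passed, 0% of those tested. At an unadjusted p under 0.05, 842 genes (5.69%) were called, 498 of them higher with prednisolone (3.37%), and 0 of the 10 markers. Of all tested genes 54.6% had a higher mean with prednisolone, and their median difference was 0.02. The 10 markers varied together over the mice, so their shared direction does not stand for 10 separate observations.

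C1qb, C1qc, Mrc1 and Cd163 are shown first by the DNA just before their start, as examples of markers that followed one another closely over the mice (the C1q genes and Mrc1) and of one that did so less closely (Cd163). RefSeq windows of build GRCm38.p6 were matched by symbol for 6 of the 10 genes, with 7 windows in all, and the 250 bases before the annotated start are given 5′ to 3′ on the gene's strand. Capitals mark the core of the recognition sequence of PU.1, the macrophage lineage factor encoded by Spi1, spelled GAGGAA on one strand and TTCCTC on the other. The windows are chr4:136886201-136886450 on the minus strand for C1qb, chr4:136892915-136893164 on the minus strand for C1qc, chr2:14229164-14229413 on the plus strand for Mrc1 and chr6:124304401-124304650 on the plus strand for Cd163.
C1qb: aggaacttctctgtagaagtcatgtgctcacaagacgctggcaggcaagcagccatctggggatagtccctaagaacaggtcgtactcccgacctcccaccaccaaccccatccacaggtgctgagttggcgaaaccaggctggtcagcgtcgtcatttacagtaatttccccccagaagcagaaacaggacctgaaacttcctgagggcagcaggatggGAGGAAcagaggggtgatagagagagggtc
C1qc: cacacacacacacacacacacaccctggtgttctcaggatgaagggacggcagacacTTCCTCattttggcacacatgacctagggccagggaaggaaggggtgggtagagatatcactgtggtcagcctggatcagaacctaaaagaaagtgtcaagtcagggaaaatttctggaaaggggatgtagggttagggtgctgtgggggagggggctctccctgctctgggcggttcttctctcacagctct
Mrc1: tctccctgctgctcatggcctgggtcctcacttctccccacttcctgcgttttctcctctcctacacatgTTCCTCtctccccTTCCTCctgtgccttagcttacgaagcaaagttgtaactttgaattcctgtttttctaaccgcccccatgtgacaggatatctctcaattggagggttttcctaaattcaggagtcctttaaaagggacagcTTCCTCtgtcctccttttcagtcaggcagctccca
Cd163: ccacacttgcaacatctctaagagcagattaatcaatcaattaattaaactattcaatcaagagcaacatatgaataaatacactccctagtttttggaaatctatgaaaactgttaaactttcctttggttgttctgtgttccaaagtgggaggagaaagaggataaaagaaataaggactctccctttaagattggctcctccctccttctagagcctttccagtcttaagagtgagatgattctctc
The core occurred in 4 of the 7 windows, those of C1qb, C1qc, Mrc1 and Cd68, and in 23.3% of the 32851 promoter windows in the table. It was in neither window of Folr2 nor in that of Cd163, although Folr2 followed the C1q genes closely (r of 0.97 with each chain). Mrc1 held 3 copies, the nearest lying 35 to 30 bases before the start, and the copy of C1qb lay 30 to 25 bases before it. The C/EBP motif TTGCNNAA was found in 1 of the 7 windows, that of Cd68, and in 9.6% of all windows. Neither the MAF site, in the short form TGCTGAC (3.8% of all windows) nor the glucocorticoid response element core ACANNNTGT (5.8%) was found in any of the 7. A match of letters is a description and not a binding site, and no match says only that these letters are not in the window. In the same annotation C1qb, C1qc and C1qa are neighbouring protein-coding genes on chromosome 4.

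Among the general markers, Cd68, a glycoprotein of macrophage lysosomes, differed most. It read 11.61, 10.97, 11.37 and 10.87 in prednisolone mice 1 to 4, and 10.19, 10.62, 11.69 and 9.92 in vehicle mice 1 to 4. All prednisolone mice lay above 3 of the vehicle mice, and vehicle mouse 3 lay above all of them. The difference was 0.60 ± 0.37 (standard error, n = 4 per group), a fold of 1.52 with a 95% interval of 0.847 to 2.72 and a limma adjusted p of 0.768. Cd68 had the lowest unadjusted p of the 10 markers, 0.138 by limma. Leaving out vehicle mouse 3 gave 0.96, and leaving out vehicle mouse 4 gave 0.37.

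Adgre1, which encodes the classical surface antigen used to identify mouse macrophages, read 9.77, 9.10, 9.71 and 9.24 in the prednisolone mice. In the vehicle mice it read 8.29, 9.01, 10.41 and 8.34. The prednisolone values lay inside the vehicle range, between vehicle mouse 3 and the other vehicle mice. Group means were 9.46 ± 0.33 and 9.01 ± 0.99 (SD, n = 4 each), and the difference was 0.45 ± 0.45 with a limma adjusted p of 0.823. It was 0.91 without vehicle mouse 3 and 0.21 without vehicle mouse 1.

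Csf1r, the growth factor receptor, read 10.85, 10.27, 10.69 and 10.46 with prednisolone and 9.80, 10.47, 11.01 and 10.05 with vehicle. Here too the prednisolone range lay within that of the vehicle mice. Its difference of 0.24 ± 0.26 (limma adjusted p = 0.834) had a 95% interval from -0.35 to 0.83, and it fell to 0.06 without vehicle mouse 1. A list of 12 other genes, all tested, was read beside Csf1r, and it includes receptor chains for another growth factor, Csf2. All 12 had a higher mean with prednisolone, beside 54.6% of all tested genes, with a median difference of 0.13. The list median of values minus their 8-array means was 0.17, -0.03, 0.11 and 0.09 in prednisolone mice 1 to 4. In vehicle mice 1 to 4 it was -0.32, 0.05, 0.07 and -0.26, so the groups overlapped. The list was not counted without the 3 arrays that carried the most epididymal RNA. Of the 12, 0 passed the adjusted threshold and 2 had an unadjusted limma p under 0.05, Il34 and Csf2ra. An unadjusted limma p under 0.05 with a higher mean was found for 3.37% of all tested genes. Il34, a ligand of Csf1r, averaged 8.26 with prednisolone and 7.73 with vehicle (0.53 ± 0.18, limma adjusted p = 0.768). Csf1, the other ligand, averaged 8.77 and 8.66 (0.11 ± 0.20). Csf2ra, a receptor chain for Csf2 and not for these ligands, differed by 0.22 ± 0.09, and its groups did not overlap, as held for 3.2% of all tested genes.

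**Figure D1:**
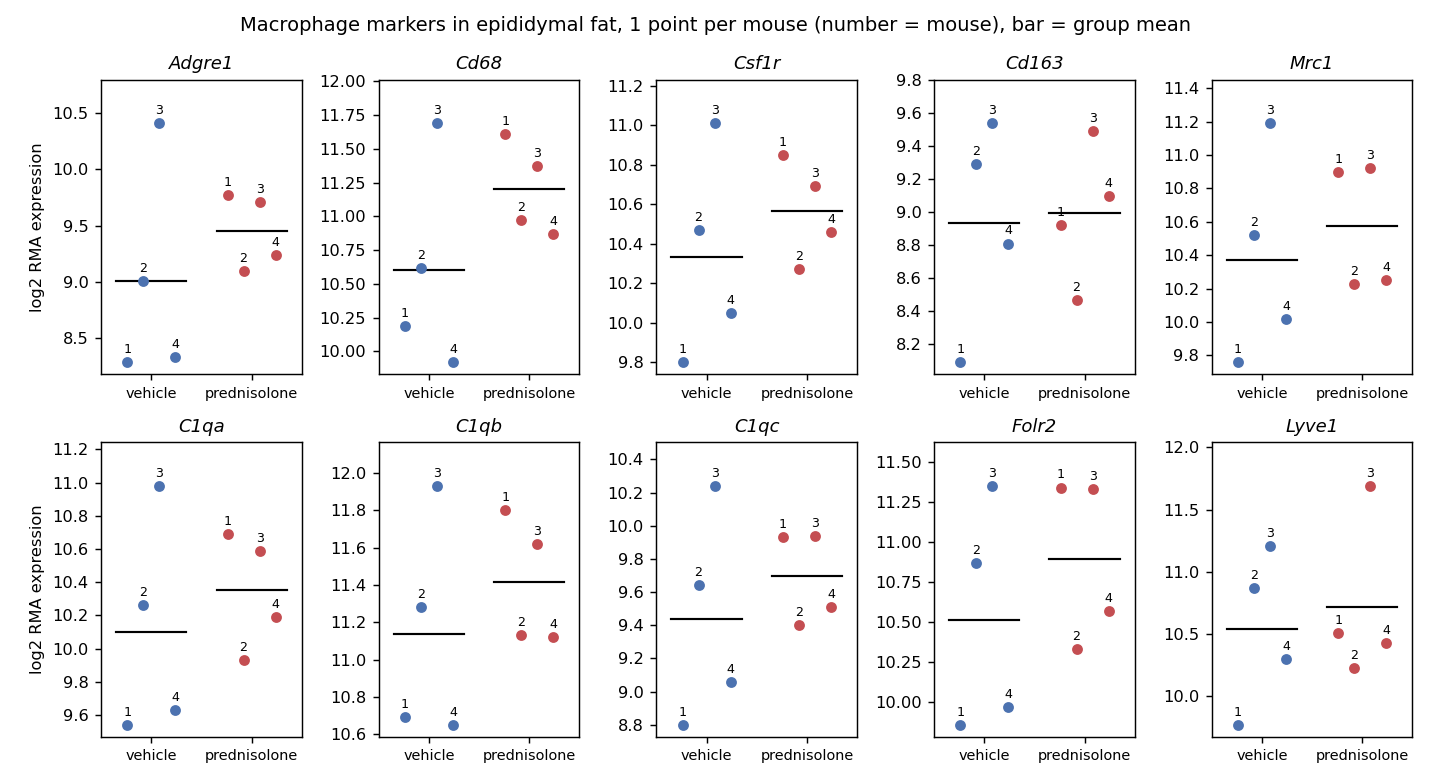
Log2 expression of each of the 10 markers (vertical axes, each with its own range) in the 4 vehicle mice (blue) and the 4 prednisolone mice (red), with the mouse number above each point and a bar at the group mean. Vehicle mouse 3 was the highest of the 8 mice for 9 markers and vehicle mouse 1 the lowest for 8, and in no marker were the groups apart.

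The 3 C1q chains behaved almost as 1 measurement. C1qa read 10.69, 9.93, 10.59 and 10.19 with prednisolone, and 9.54, 10.26, 10.98 and 9.63 with vehicle. C1qb read 11.80, 11.13, 11.62 and 11.12, against 10.69, 11.28, 11.93 and 10.65. C1qc read 9.93, 9.40, 9.94 and 9.51, against 8.80, 9.64, 10.24 and 9.06. In every chain vehicle mouse 3 was the highest and vehicle mice 1 and 4 were the lowest pair. After each chain was centred on its own mean over the 8 arrays, the 3 chains differed from one another by 0.03 to 0.17 within a mouse, while their average moved from -0.68 in vehicle mouse 1 to 0.70 in vehicle mouse 3. Their differences between groups were 0.25 ± 0.33, 0.28 ± 0.30 and 0.26 ± 0.30, with limma adjusted p-values of 0.863, 0.832 and 0.843. The interval for C1qb ran from -0.41 to 0.97.

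C1q acts with the proteases C1r and C1s, which were read with other partners of the classical pathway. Their centred list median was highest, at 0.34, in prednisolone mouse 1 and vehicle mouse 3 and lowest, at -0.44, in vehicle mouse 1. Between the groups, of 11 tested partners 6 were higher and 5 lower, with a median of 0.06, beside 54.6% higher among all tested genes. Of the 11, 0 passed the adjusted limma threshold and 1 the unadjusted one, which 5.69% of all tested genes passed. C1ra and C1s1, the protease genes, differed by -0.05 ± 0.16 and -0.11 ± 0.17. Cd55, a membrane inhibitor of complement, averaged 9.69 against 9.12 (0.56 ± 0.24, limma adjusted p = 0.768), and Itgb2, the beta chain of complement receptor 3 on leukocytes, 9.64 against 9.15 (0.49 ± 0.22). Those 2 had the lowest p of the list. Each was lowest in vehicle mice 1 and 4, at 8.62 and 8.95 for Cd55 and at 8.88 and 8.77 for Itgb2.

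Mrc1, the mannose receptor CD206, read 10.90, 10.23, 10.92 and 10.25 with prednisolone and 9.76, 10.52, 11.19 and 10.02 with vehicle. Its difference was 0.21 ± 0.32 (limma adjusted p = 0.882) and was 0.00 without vehicle mouse 1. Folr2, the folate receptor beta of resident macrophages, read 11.34, 10.33, 11.33 and 10.57, against 9.86, 10.87, 11.35 and 9.97. For Folr2, prednisolone mice 1 and 3 lay just below vehicle mouse 3, and prednisolone mice 2 and 4 lay below vehicle mouse 2. The difference was 0.38 ± 0.38 (limma adjusted p = 0.823), which ran from 0.16 without vehicle mouse 1 to 0.66 without vehicle mouse 3.

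Cd163, the scavenger receptor for haemoglobin bound to haptoglobin, had the smallest difference of the 10. It read 8.92, 8.47, 9.49 and 9.10 with prednisolone and 8.09, 9.29, 9.54 and 8.81 with vehicle. Vehicle mouse 2 lay above prednisolone mice 1, 2 and 4. Group means were 9.0 ± 0.43 and 8.93 ± 0.64 (SD, n = 4 each), and the difference of 0.06 ± 0.33 (limma adjusted p = 0.965) had a 95% interval of 0.617-fold to 1.77-fold. Its sign turned in some fits, to -0.10 without prednisolone mouse 3 and -0.22 when vehicle mouse 1 was left out. Among 11 tested genes of haemoglobin and iron handling, 9 were higher and 2 lower, with a median of 0.15, beside 54.6% higher among all tested genes. Their centred list median was lowest in vehicle mice 1 and 4, at -0.34 and -0.31, and highest in vehicle mouse 3, at 0.29. These genes were not counted without the 3 arrays that carried the most epididymal RNA. Of the 11, 0 passed the adjusted limma threshold and 2 the unadjusted one, each higher, beside 3.37% of all tested genes. Hp, haptoglobin itself, differed by 0.26 ± 0.21, and Hmox1, the haem-degrading enzyme, by 0.11 ± 0.48 with its highest value of 10.36 in vehicle mouse 3. Blvra, which acts after it by reducing biliverdin, averaged 8.64 against 8.21 (0.42 ± 0.15), and the haem transporter Slc48a1 12.18 against 11.86 (0.32 ± 0.13), each with a limma adjusted p of 0.768.

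Lyve1, a hyaluronan receptor, read 10.51, 10.23, 11.69 and 10.43 with prednisolone and 9.77, 10.87, 11.21 and 10.30 with vehicle. It was the 1 marker whose highest value was not in vehicle mouse 3 but in prednisolone mouse 3, 1.46 above the lowest of that group. The difference was 0.18 ± 0.40 (limma adjusted p = 0.918), and the fits that left out prednisolone mouse 3, vehicle mouse 1 or vehicle mouse 3 gave -0.15, -0.08 and 0.40. Lymphatic endothelium also carries Lyve1, so its markers were read beside it. Of 10 listed lymphatic genes 9 were measured and 7 tested, 2 higher and 5 lower with prednisolone, beside 54.6% higher among all tested genes. The median difference of the 7 was -0.06, with 0 past either limma threshold. Their mean level ran from 6.62 to 7.47 in prednisolone mice and from 6.90 to 7.90 in vehicle mice. Prox1, the lymphatic master regulator, lay below the limit on dim genes and has no test; it was lowest in prednisolone mouse 3 at 4.50 and highest in vehicle mouse 3 at 6.35. Flt4, the receptor for the lymphatic growth factor, read 7.59 in prednisolone mouse 3, its second lowest value. Fgl2 and Reln, the genes of lowest p in the list, differed by -0.61 ± 0.32 and -0.42 ± 0.27, and both were lowest in prednisolone mouse 3 and highest in vehicle mouse 3. The mouse with the most Lyve1, prednisolone mouse 3, had the lowest lymphatic list median, -0.46. The mouse with the highest lymphatic median, 0.66, was vehicle mouse 3, which had the second highest Lyve1, at 11.21. The part of lymphatic cells in the Lyve1 signal was not tested.

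**Figure D2:**
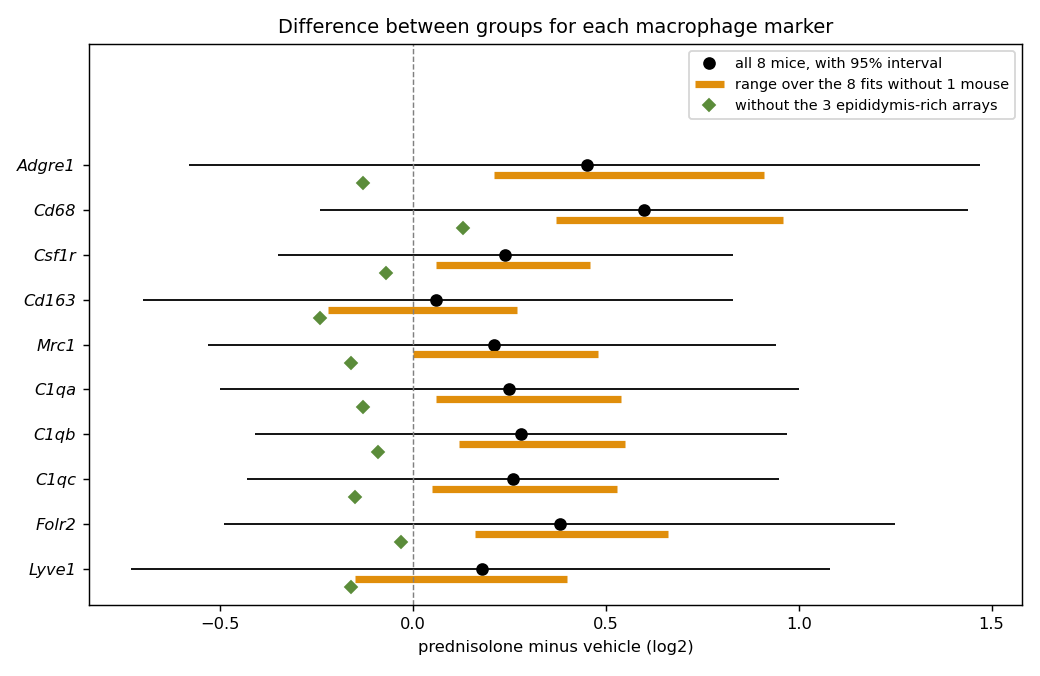
Prednisolone minus vehicle difference in log2 expression (horizontal axis) for each marker, with black points and lines for all 8 mice and the 95% interval, orange bars for the range over the 8 fits that leave out 1 mouse, and green diamonds for the fit without the 3 epididymis-rich arrays. Every 95% interval crosses 0, and 9 of the 10 diamonds lie below 0.

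The mice, more than the groups, ordered these markers. Centred on its 8-array mean, the median of the 10 markers was 0.45, -0.21, 0.46 and -0.04 in prednisolone mice 1 to 4, and -0.74, 0.04, 0.67 and -0.55 in vehicle mice 1 to 4. Vehicle mouse 3 and prednisolone mouse 3 were among the 3 highest mice for all 10 markers, and prednisolone mouse 1 for 8. Vehicle mice 1 and 4 were among the 3 lowest for all 10, and prednisolone mouse 2 for 7. Vehicle mouse 3 was the highest array for 9 of the 10 markers, against 13.6% of all tested genes. Vehicle mouse 1 was the lowest for 8, against 23.7% of all tested genes. The SD over vehicle mice exceeded that over prednisolone mice in 9 of 10 markers, the exception being Lyve1 at 0.64 and 0.66, while the vehicle SD was the larger in 61.4% of all tested genes.

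Transcripts of the epididymis, the sperm duct beside this pad, varied with the same mice. The epididymis score is the mean over 13 tested genes, of 16 listed and 14 measured, of each value minus its 8-array mean. It was 0.11, 3.12, -2.32 and -2.09 in prednisolone mice 1 to 4 and 3.04, -2.41, -1.28 and 1.83 in vehicle mice 1 to 4. Gpx5 and Adam7, a peroxidase and a membrane protein of the duct, averaged 8.60 and 8.32 with prednisolone and 10.07 and 9.70 with vehicle. The genes of lowest p, Defb2 and Spag11a, which encode defensin-like peptides, differed by -1.83 ± 0.83 and -2.44 ± 1.62 and were highest in vehicle mice 1 and 4. The mean level of the 14 measured genes ran from 5.53 to 10.95 in prednisolone mice and from 5.49 to 10.62 in vehicle mice. The 3 mice with a score over 1, prednisolone mouse 2 and vehicle mice 1 and 4, were also the 3 with the lowest marker medians. Among the other 5 mice the order differed, since vehicle mouse 2, with the lowest epididymis score, had a marker median of 0.04, and vehicle mouse 3, with a score of -1.28, had the highest at 0.67. Prednisolone mouse 1, with a score of 0.11, had a marker median of 0.45. It read 11.27 for Gpx5 and 9.15 for Adam7, so these 5 mice were not all free of epididymal transcripts. Gpx5 read 8.69 in vehicle mouse 3 and 4.19 to 4.76 in prednisolone mice 3 and 4 and vehicle mouse 2. With the score as a covariate the difference was 0.35 for Adgre1, 0.54 for Cd68 and -0.05 for Cd163, and 9 of 10 markers kept a higher adjusted mean with prednisolone. Without the 3 arrays of score over 1, which leaves 3 prednisolone and 2 vehicle mice, Cd68 differed by 0.13, Folr2 by -0.03, C1qb by -0.09, Adgre1 by -0.13 and Cd163 by -0.24. Both fits were chosen after the values were seen, and the part of epididymal RNA in the marker differences was not tested beyond them.

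**Figure D3:**
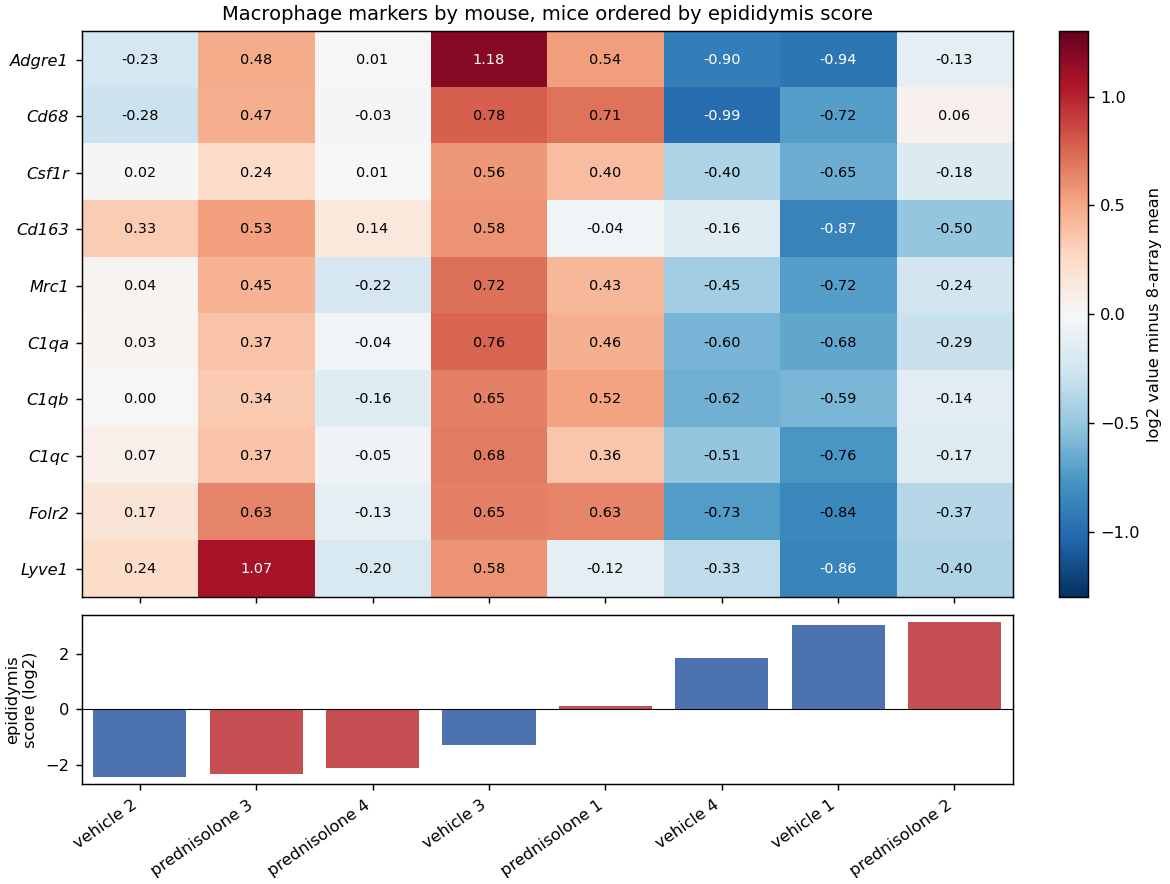
Upper panel, log2 value minus the gene's 8-array mean for the 10 markers (rows) in the 8 mice (columns), with the value printed in each cell and colour from blue (low) to red (high). Lower panel, the epididymis score of each mouse on the log2 scale, by which the columns are ordered, with vehicle in blue and prednisolone in red; the 3 mice with a score over 1 have low values for nearly all markers, with Cd68 in prednisolone mouse 2, at 0.06, the exception.

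Within the list, 8 markers varied together over the mice and the other 2, Cd163 and Lyve1, took a partly different course. Pearson's r over the 8 arrays served as a measure of likeness, as a description of arrays that share tissue and normalization. Over the 28 pairs of the 8 markers r ran from 0.90 to 0.99. Cd163 and Lyve1 had an r of 0.91 with each other and of 0.58 to 0.84 with the 8. The average centred value of Cd163 and Lyve1 minus that of Adgre1 and Cd68, a contrast set up after the values were seen, was -0.70, -0.41, 0.33 and -0.01 in prednisolone mice 1 to 4 and -0.04, 0.54, -0.40 and 0.70 in vehicle mice 1 to 4. The groups overlapped on this contrast. It subtracts Adgre1 and Cd68, so a mouse high in those tends to a low value, as in vehicle mouse 3, which had the highest Cd163 of all 8 mice; prednisolone mouse 3, also high in Adgre1 and Cd68, stood at 0.33. Pearson's r with the epididymis score, as a description over the same 8 arrays, was -0.90 for Cd163 and -0.78 for Lyve1, and between -0.72 and -0.47 for the other 8 markers.

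The 3 tested genes closest to each marker were found by the same measure. Closest to Csf1r were C1qc (r of 0.990), Inpp5d (0.989), a lipid phosphatase of blood cells, and C1qa (0.988). For C1qa they were Rab31 (0.996), Inpp5d and C1qc, for C1qc they were Csf1r, C1qa and Mrc1, and for C1qb they were Fcer1g (0.992), S100a4 and Inpp5d. Cd68 lay closest to P2ry6 (0.991), Tyrobp and Cybb, the last a subunit of the phagocyte oxidase. Adgre1 lay closest to Arl11 (0.990), Tlr8 and Apol9a, Mrc1 to Twf2 (0.987), Clec4a1 and C1qc, and Folr2 to Twf2 (0.985), Slc39a1 and Ms4a8a. Cd163 instead lay closest to Rpl39l (0.978), Dapk1 and Tmem18, and Lyve1 to Dcpp2 (0.993), Prss22 and Ms4a4a. Of 37 other tested general and resident macrophage genes, between 10 and 17 had an r over 0.9 with each of the 8 markers. That held for 2 of the 37 with Cd163 and 1 with Lyve1. Of all other tested genes, r exceeded 0.9 for 1% to 1.63% with each of the 8 markers, for 0.663% with Cd163 and for 0.291% with Lyve1.

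Other macrophage genes were read for the same mice. Of 17 other general macrophage genes 15 were higher with prednisolone and 2 lower, with a median of 0.34, 0 past the adjusted limma threshold and 1 past the unadjusted one. Of all tested genes 54.6% were higher. The centred median of these 17 genes was lowest in the epididymis-rich vehicle mice 1 and 4, at -0.54 and -0.61, and was -0.05 in prednisolone mouse 2. Neither this list nor the next was counted without the epididymis-rich arrays. Trem2, a lipid-sensing receptor, averaged 8.09 against 7.37 (0.72 ± 0.27, limma adjusted p = 0.768), and Ctss, a lysosomal protease, 10.73 against 10.22 (0.51 ± 0.23). Cd14, the co-receptor for endotoxin, differed by 0.12 ± 0.30 and Fcgr1, the high-affinity antibody receptor, by 0.27 ± 0.47. Of 20 tested resident macrophage genes, out of 22 listed, 16 were higher and 4 lower, with a median of 0.16 and 0 past either limma threshold. Timd4, a phosphatidylserine receptor of long-lived resident cells, averaged 7.14 against 7.29 (-0.15 ± 0.32), and Stab1, a scavenger receptor, 9.47 against 9.31 (0.16 ± 0.39). The lectins Mgl2 and Clec10a differed by 0.57 ± 0.28 and 0.46 ± 0.31, and Mgl2 was at its lowest, 7.21, in vehicle mouse 3, the mouse with the highest values of 9 of the 10 markers.

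Genes of lipid-associated macrophages, which gather around dying fat cells, were ordered otherwise over the mice. With prednisolone 12 of the 13 genes tested had a higher mean, beside 54.6% of all tested genes, and 1 a lower one. The median difference was 0.55, beside 0.25 for the general and resident markers. Of the 13, 0 passed the adjusted limma threshold and 5 the unadjusted one, all higher, beside 3.37% of all tested genes. Their centred median was 0.11, 0.40, 0.22 and 0.06 in prednisolone mice 1 to 4 and 0.00, -0.24, -0.09 and -0.32 in vehicle mice 1 to 4, so the groups did not overlap in this median. Single genes overlapped more often, as the groups were apart in 2 of the 13, beside 3.2% of all tested genes. Vehicle mouse 1 stood at 0.00 for this list and at -0.74 for the 10 markers, and prednisolone mouse 2 at 0.40 and -0.21. Mmp12, a macrophage elastase, read 9.53 in prednisolone mouse 2, its highest value, and 7.42 in vehicle mouse 3, its lowest. Lgals3, a galectin, differed by 0.63 ± 0.21 with the groups apart. Cd9, a tetraspanin, differed by 0.10 ± 0.20 and was second highest in vehicle mouse 3 at 9.17, so the genes of this list did not all follow its median. Whether the lists differ was not tested. The list also includes Lpl, Plin2 and Fabp5, and in whole fat the cells that expressed its genes were not identified. Its median is therefore not a reading of macrophages alone. Trem2 belongs to both this list and that of general macrophage genes.

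**Figure D4:**
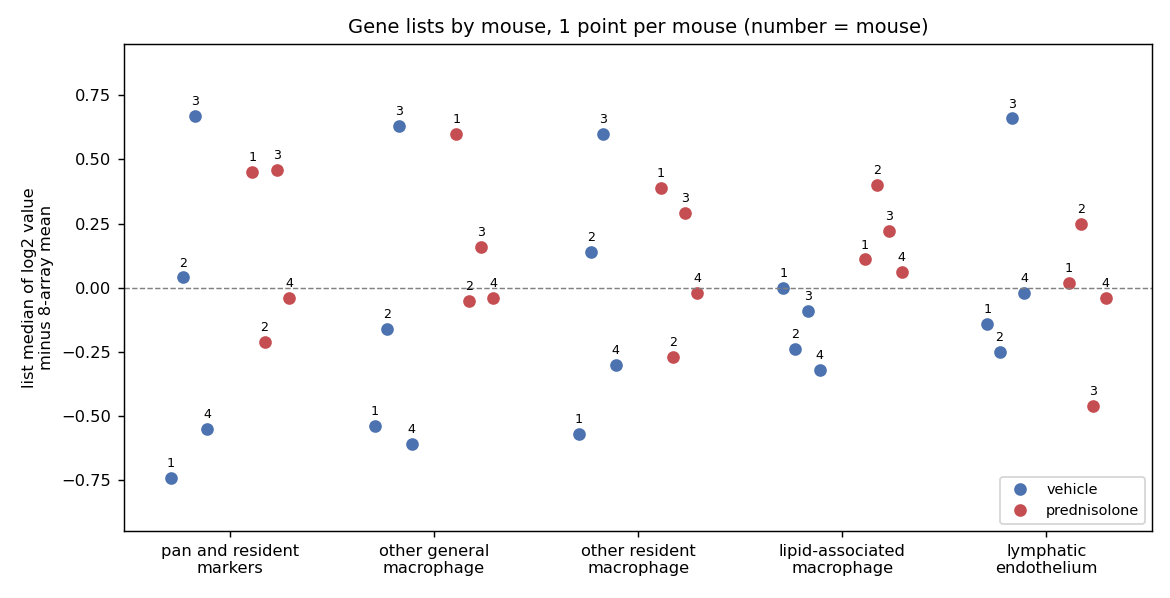
Median over each gene list of the log2 value minus its 8-array mean (vertical axis), 1 point per mouse, with vehicle in blue, prednisolone in red and the mouse number above each point. For the pan and resident markers the vehicle mice range from -0.74 to 0.67 around the prednisolone mice, whereas the median of the lipid-associated genes is higher in all prednisolone than in all vehicle mice, though the groups were apart in only 2 of its 13 genes.

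Markers of other cells were read as a check of the tissue. Adipocyte genes were bright on all arrays, with a mean level of 12.27 to 12.47 in prednisolone and 12.05 to 12.53 in vehicle mice, and Adipoq, adiponectin, between 11.74 and 12.29. Plin1 and Cidec, coat proteins of the lipid droplet, differed by 0.08 ± 0.13 and 0.18 ± 0.13, and Lep, leptin, by 0.39 ± 0.13. The monocyte genes Ccr2 and Ly6c2 differed by 0.14 ± 0.48 and 0.02 ± 0.22. Of 7 tested monocyte genes 5 were higher and 2 lower, with a median of 0.14. Chil3, a secreted protein of monocytes and macrophages, averaged 6.76 against 5.24 (1.52 ± 0.66, limma adjusted p = 0.768) with overlapping groups. Its vehicle mean lay below the limit on dim genes, 5.82, so the difference was measured from a low signal. Ace, which the epididymis also makes, read 12.72 and 12.26 in vehicle mice 1 and 4 and 9.91 to 10.30 elsewhere. Of 7 tested dendritic cell genes 3 were higher, with Flt3 at -0.06 ± 0.20, Zbtb46 at 0.15 ± 0.16, Itgae at -0.20 ± 0.16 and Batf3 at 0.13 ± 0.14. Of 4 tested T and B lymphocyte genes 1 was higher, and Cd3e, Cd4 and Cd79a differed by -0.11 ± 0.15, -0.22 ± 0.23 and -0.14 ± 0.08, while Cd3d lay below the limit on dim genes. Of 8 blood endothelial genes 1 was higher and 7 lower, with a median of -0.15, and Pecam1, Cdh5, Emcn and Tie1 differed by -0.18 ± 0.25, -0.08 ± 0.22, -0.27 ± 0.21 and -0.26 ± 0.26. In these lists 0 genes passed the adjusted limma threshold, and the unadjusted one was passed by 1 monocyte gene, Chil3, and 1 adipocyte gene, Lep. Beside these counts, 54.6% of all tested genes had a higher mean with prednisolone and 5.69% passed the unadjusted limma threshold. Ptprc, the common leukocyte antigen, averaged 8.99 and 8.83 (0.16 ± 0.20). Fkbp5, a standard readout of glucocorticoid action, stood at 8.55 in prednisolone and 8.95 in vehicle mice (-0.40 ± 0.32), and Nr3c1, the glucocorticoid receptor, 9.77 and 9.74. Array medians ran from 6.09 to 6.13.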

How the data were processed

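Total RNA (100 ng per array, per the labels) of 8 fat samples was measured on 8 arrays. The deposited log2 values were made by the authors with RMA in Affymetrix Expression Console, per the labels, which corrects background, equalises the arrays and summarises probes, and so compresses low signals and removes shifts common to an array. The submitters' processing notes also list Partek 6.6, and its use is not stated. The build is not given in the sources used here. Of 41345 probe sets, 23521 had 1 symbol in the platform annotation, 1814 several and 16010 none; 23328 matched RefSeq genes by Entrez ID. The brightest probe set per gene gave 22180 genes, and leaving out the dimmest 33.3% by mean (limit 5.82) left 14787, all 10 markers included. Groups were compared with limma 3.58.1 in R 4.3.3 (lmFit, eBayes), with Benjamini-Hochberg adjustment over the tested genes, and the script was tested on simulated data. The number of arrays limits precision.

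The markers and gene lists were chosen with earlier results of these data known. Named were the markers, the 2 genes of lowest p and the first 2 of each list, and the 3 genes closest to each marker, leaving out predicted genes. Alternatives changed the filter, normalization, probe set rule, variance model, array weights and block, and left out each mouse. Same-numbered mice were treated as unpaired, since the labels state no pairing. The correlation of their deviations ran from -0.58 to 0.13, which cannot by itself decide whether they were paired. Figures were drawn with matplotlib 3.10.9.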

Additional observations from a re-analysis of the deposited data

How the results depend on the processing

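Over all alternatives 0 markers and 0 of all tested genes passed the adjusted threshold. Changing the filter, normalization, probe set rule, variance model, weights or block left 10 of 10 markers higher, with a median of 0.25 to 0.46, the largest with array quality weights. Leaving out 1 mouse gave 8 to 10 markers higher and a median of 0.06 (without vehicle mouse 1) to 0.54 (without vehicle mouse 3), with 0.13 without vehicle mouse 4. Over the fits without 1 mouse, Cd163 ran from -0.22 to 0.27 and Lyve1 from -0.15 to 0.40. Signs turned for Cd163 (-0.10) and Lyve1 (-0.15) without prednisolone mouse 3, for Cd163 (-0.22) and Lyve1 (-0.08) without vehicle mouse 1, and for Cd163 (-0.05) with the epididymis score as a covariate. Without the 3 arrays of epididymis score over 1, 1 marker was higher, the median was -0.13, and Adgre1 stood at -0.13, Csf1r -0.07, Cd163 -0.24, Mrc1 -0.16, C1qa -0.13, C1qb -0.09, C1qc -0.15, Folr2 -0.03 and Lyve1 -0.16. Genes at an unadjusted limma p under 0.05 numbered 842, against 504 with the replicate block, 1980 with array weights, 497 without those 3 arrays and 436 to 1590 without 1 mouse. The replicate block changed no call on a marker and left the median at 0.25. The causes were not tested.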
